A study of Homo sapiens with 54 samples.

Results

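The neuroectoderm transcription factors measured here are PAX6, SOX1, SOX3, ZIC1, OTX2, LHX2, FEZF1, SIX3 and HESX1, and they are 9 of the 19720 genes with a named probe on the array. They were chosen as genes of the neural plate and of its anterior end, with earlier results of these data known. They were found through the RefSeq accession of each probe, which gave 11 probes, 3 for PAX6 and 1 for each of the others. Where a gene had more than 1 probe, the probe that was brightest on average stands for it. The arrays cover human pluripotent stem cells fed with basic fibroblast growth factor (bFGF, the FGF2 protein), with FGFC, a chimera of FGF1 and FGF2 fragments, or with no FGF. H1, a human embryonic stem cell line, was grown in E8 Medium, a defined medium with 2 ng/mL of TGF-beta 1, in 3 numbered experiments, each with a pre-culture kept with bFGF and 4-day cultures of 3 kinds, 1 fed with bFGF and 1 with FGFC (each at 100 ng/mL) and 1 left without FGF. Each of 5 long-term systems has a bFGF and an FGFC culture: H1 in E8 Medium (30 days, 100 ng/mL), H1 in medium conditioned by mouse embryonic fibroblasts (MEFs; 41 days, 5 ng/mL), KhES-1 embryonic stem cells on MEF feeder cells (30 days, 5 ng/mL), 201B7 induced pluripotent stem cells on MEF feeder cells (50 days, 10 ng/mL) and 253G1 induced pluripotent stem cells in E8 Medium (36 days, 100 ng/mL). The other 4 systems also have a pre-culture each with bFGF. A single H1 culture was differentiated without added FGF through embryoid bodies that were then attached to gelatin. These are 27 cultures, each on 2 one-colour Agilent arrays that were averaged, and every long-term or differentiated condition is 1 culture. By its labels the 4-day cultures of experiment 2 are of passage 59 and their pre-culture of passage 49, whereas the sample titles of the other experiments are 1 passage apart. For experiment 3 the titles give passage 51 for all 4-day arrays and the characteristics passages 51 to 56.

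Neuroectoderm is the layer of the embryo from which brain and spinal cord arise, and in pluripotent cells it is known to form when signals that hold the cells undifferentiated are withdrawn. PAX6 (a paired-box factor of neural progenitors and the eye), SOX1 and SOX3 (SoxB1 factors of the neural plate, of which SOX3 is also made in pluripotent cells) and ZIC1 (a zinc finger factor of the dorsal neural plate and its border) mark the plate broadly. OTX2 (a homeodomain factor of forebrain and midbrain that primed pluripotent cells also make), LHX2 (a LIM-homeodomain factor of the eye field and cortex), FEZF1 (a zinc finger repressor of the forebrain), SIX3 (a homeodomain factor of the foremost forebrain and the eye) and HESX1 (a homeodomain repressor of the anterior plate and the pituitary) mark its anterior end.

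The 250 bases before the most upstream RefSeq start (GRCh38.p14) are shown for the forebrain factors OTX2, LHX2, FEZF1 and HESX1, since these were measured to rise together without FGF. All are 5′ to 3′ on the strand of the gene, with the letters CCAAT, or ATTGG for the other strand, in capitals.
OTX2, chr14:56810480-56810729, minus strand: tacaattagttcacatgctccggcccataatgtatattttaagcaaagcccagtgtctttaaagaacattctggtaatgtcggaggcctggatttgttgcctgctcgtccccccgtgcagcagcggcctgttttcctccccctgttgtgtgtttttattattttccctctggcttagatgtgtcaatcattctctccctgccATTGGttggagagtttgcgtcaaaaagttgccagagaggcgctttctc
LHX2, chr9:124011518-124011767, plus strand: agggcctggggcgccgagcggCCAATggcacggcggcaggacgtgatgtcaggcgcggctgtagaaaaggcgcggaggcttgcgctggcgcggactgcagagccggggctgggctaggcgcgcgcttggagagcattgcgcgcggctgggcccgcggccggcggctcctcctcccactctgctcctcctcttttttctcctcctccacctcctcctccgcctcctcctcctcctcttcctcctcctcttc
FEZF1, chr7:122304751-122305000, minus strand: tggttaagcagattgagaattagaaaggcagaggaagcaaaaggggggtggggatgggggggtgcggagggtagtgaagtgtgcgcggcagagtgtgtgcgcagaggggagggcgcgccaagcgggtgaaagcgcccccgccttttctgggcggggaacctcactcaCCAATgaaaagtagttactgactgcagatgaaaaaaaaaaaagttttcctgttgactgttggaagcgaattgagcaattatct
HESX1, chr3:57227616-57227865, minus strand: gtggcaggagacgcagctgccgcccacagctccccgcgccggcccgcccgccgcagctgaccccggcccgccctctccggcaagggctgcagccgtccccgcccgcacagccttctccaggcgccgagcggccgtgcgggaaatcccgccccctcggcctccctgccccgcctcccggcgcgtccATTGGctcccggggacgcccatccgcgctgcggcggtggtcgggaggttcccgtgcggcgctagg
Of the 9 genes, 8 were matched in the RefSeq promoter table, and CCAAT on either strand was found in 7 of the 8 windows (not in SOX1), against 33.0% of the 27305 windows of all genes. The same windows were searched on both strands for TAATTA, the core that many homeodomain factors bind, which 4.52% of all windows hold, for TAATCC (5.71%), for ACAAAG (13.7%) and for TATAAA (11.2%), and 0 of the 8 held any of these. Their content of CpG pairs ranged from 7 in OTX2 to 35 in HESX1, with a median of 10 over all windows. These matches are letters only and were not tested against the expression values.

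Signals are given as normalised log2 signal, on which 0 is the 75th percentile of the probes of the array and a step of 1 is a 2-fold change, and the scanner software marked each spot that was well above background. Of 42405 probes, 56.2% to 79.2% were well above background per array (median 67.5%), and 0 spots were saturated. SOX3, OTX2 and HESX1 were well above background on all 54 arrays, LHX2 on 47, SIX3 on 41, FEZF1 on 30, PAX6 on 19, ZIC1 on 7 and SOX1 on 3. The median difference between duplicate arrays lay between 0.06 (HESX1) and 0.34 (PAX6). Among the pluripotency genes used to check the undifferentiated state, POU5F1, NANOG and 6 others were well above background on at least 1 array of every culture. Levels of different genes come from different probes and were not compared with each other, except that the linear signals of some lists were summed.

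**Figure D1:**
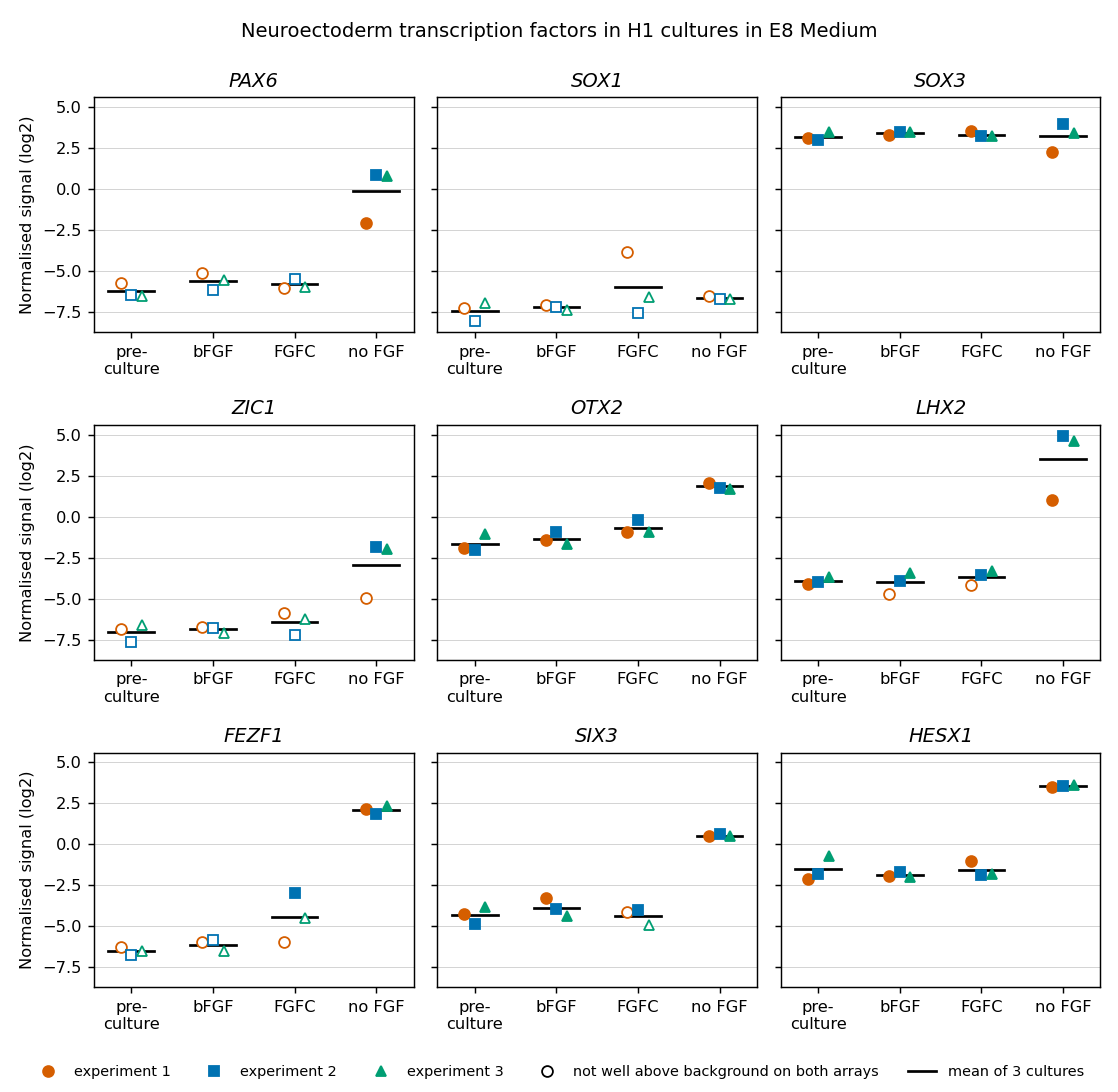
Normalised log2 signal of the 9 genes in the 12 H1 cultures in E8 Medium, by arm (pre-culture, bFGF, FGFC and no FGF), with a marker per culture and experiment, open where the probe was not well above background on both arrays, and a bar at the mean of 3 cultures. HESX1, SIX3, FEZF1 and OTX2 stood at nearly one level in the 3 cultures without FGF, whereas LHX2, PAX6, ZIC1 and SOX3 were lowest there in experiment 1.

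Removal of FGF for 4 days was compared with bFGF to ask which neuroectoderm factors respond in H1. Of the 9 genes, 7 rose, 0 fell and 2 did not pass (limma, adjusted p over all probes), while 5.54% of all probes rose and 7.19% fell. All 5 forebrain factors rose, by fitted differences of 3.19 to 8.23 on the log2 scale, as did PAX6 and ZIC1, whereas SOX3 and SOX1 did not pass. The median log2 difference was 4.41 over the 9 genes, also with FEZF1, PAX6 and ZIC1 at their lower bounds, and 0.01 over all probes. In 8 of 9 genes the 3 cultures without FGF all lay above the 3 with bFGF, which held for 24.2% of all probes. Among the 8 was SOX1, which was well above background on no array of either arm. In such bulk RNA, more cells that make a transcript and more transcript per cell cannot be told apart.

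FEZF1 went from background to a clear signal. It was at 2.12, 1.87 and 2.33 without FGF in experiments 1, 2 and 3, and at -5.99, -5.84 and -6.54 with bFGF, where it was well above background on 0 of 6 arrays. FEZF1 was thus at least 217-fold higher without FGF (fitted log2 difference 8.23 ± 0.56 SE, adjusted p = 5.75e-06). HESX1 was at 3.47, 3.53 and 3.63 without FGF and at -1.96, -1.71 and -1.97 with bFGF. This repressor of the anterior plate was present on every array in both arms and rose by 5.42 ± 0.34 (SE; adjusted p = 3.08e-06), with 3.54 ± 0.08 against -1.88 ± 0.15 (SD, n = 3 cultures). SIX3 was at 0.49, 0.60 and 0.49 without FGF and at -3.30, -3.95 and -4.40 with bFGF. The SIX3 levels without FGF differed by 0.11 at most, and the rise was 4.41 ± 0.34 (SE; adjusted p = 1.28e-05). OTX2 was at 2.06, 1.75 and 1.71 without FGF and at -1.45, -0.92 and -1.69 with bFGF. OTX2 thus had a clear level in the undifferentiated cells and rose by 3.19 ± 0.30 (SE; adjusted p = 5.81e-05), the smallest rise among the forebrain factors. LHX2 was at 0.99, 4.94 and 4.59 without FGF and at -4.69, -3.91 and -3.44 with bFGF. The LHX2 cultures did not overlap, and the rise of 7.52 ± 0.82 (SE; adjusted p = 0.000145) went with a wide spread among the cultures without FGF (SD 2.19).

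PAX6 was at -2.09, 0.84 and 0.80 without FGF and at -5.09, -6.13 and -5.53 with bFGF, where it was well above background on 0 of 6 arrays. PAX6 was at least 37.7-fold higher without FGF (log2 difference 5.44 ± 0.65 SE, adjusted p = 0.000268). Its second probe gave at least 86.8-fold (log2 difference 7.79 ± 0.72 SE, adjusted p = 4.63e-05), whereas the third probe, which was not well above background on any array without FGF, differed by 0.20 (adjusted p = 0.821). ZIC1 was at -4.94, -1.85 and -1.99 without FGF and at -6.74, -6.80 and -7.08 with bFGF. ZIC1 was well above background on 4 of 6 arrays without FGF, those of experiments 2 and 3, and was at least 7.28-fold higher (log2 difference 3.95 ± 0.69 SE, adjusted p = 0.00331). The ZIC1 call was lost without experiment 2 (adjusted p = 0.0612) or without experiment 3 (adjusted p = 0.138). SOX3 was at 2.29, 3.94 and 3.42 without FGF and at 3.29, 3.48 and 3.50 with bFGF. The SOX3 arms overlapped, with a log2 difference of -0.20 ± 0.34 (SE; adjusted p = 0.753), which was 0.19 without experiment 1. SOX1, the SoxB1 factor of the definitive neural plate, was at -6.55, -6.70 and -6.69 without FGF and at -7.09, -7.19 and -7.40 with bFGF, and was well above background on 0 of these 12 arrays. A change of SOX1 was therefore not detectable in this comparison (log2 difference 0.58 ± 0.72 SE, adjusted p = 0.663), and when the fit held the no FGF and bFGF arms only, its adjusted p was 0.0314.

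The cultures without FGF fell into different patterns by gene. FEZF1, HESX1, SIX3 and OTX2 differed by 0.11 to 0.46 between experiments, whereas in experiment 1 the difference from the mean of experiments 2 and 3 was -3.77 for LHX2, -3.02 for ZIC1 and -2.91 for PAX6 on the log2 scale. RAX, the eye field factor, had the same order, at 1.86 in experiment 1 against 3.78 and 3.82. Of 10 genes of the non-neural ectoderm and its border, 8 were highest in experiment 1 (not KRT18 or TP63), by little in some, with TFAP2A at -0.91 in experiment 1 against -4.11 and -2.65, and GATA3 at -0.43 against -2.48 and -1.47. The share of all probes that were highest in experiment 1 was not counted. Background readings were also highest there for some genes, as for SOX1 (-6.55 against -6.70 and -6.69). POU5F1, the pluripotency factor Oct-4, was at 7.46 in experiment 1 against 6.83 and 6.70. Differences between single experiments have no replicate, and the part of these genes, or of the passage, in the lower LHX2, PAX6 and ZIC1 signals was not tested.

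Against FGFC in place of bFGF, the same comparison shares the cultures without FGF and is given beside it. Of the 9 genes 7 rose and 0 fell, while 4.71% of all probes rose and 6.07% fell. The log2 differences were 7.19 ± 0.82 (SE) for LHX2, 6.57 ± 0.56 for FEZF1, 5.67 ± 0.65 for PAX6, 5.12 ± 0.34 for HESX1, 4.90 ± 0.34 for SIX3 and 2.52 ± 0.30 for OTX2. ZIC1, well above background on 0 of 6 FGFC arrays, was at least 6.30-fold higher (fitted log2 difference 3.52 ± 0.69). The adjusted p-values of these 7 genes (limma) ranged from 5.46e-06 for HESX1 to 0.00737 for ZIC1. The ZIC1 call was again lost without experiment 2 (adjusted p = 0.167) or 3 (0.193), and with the 2 arms alone (0.0525). SOX3 differed by -0.10 (adjusted p = 0.909) and SOX1 by -0.65 (adjusted p = 0.705). The median over the 9 genes was 4.90, and -0.02 over all probes.

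**Figure D2:**
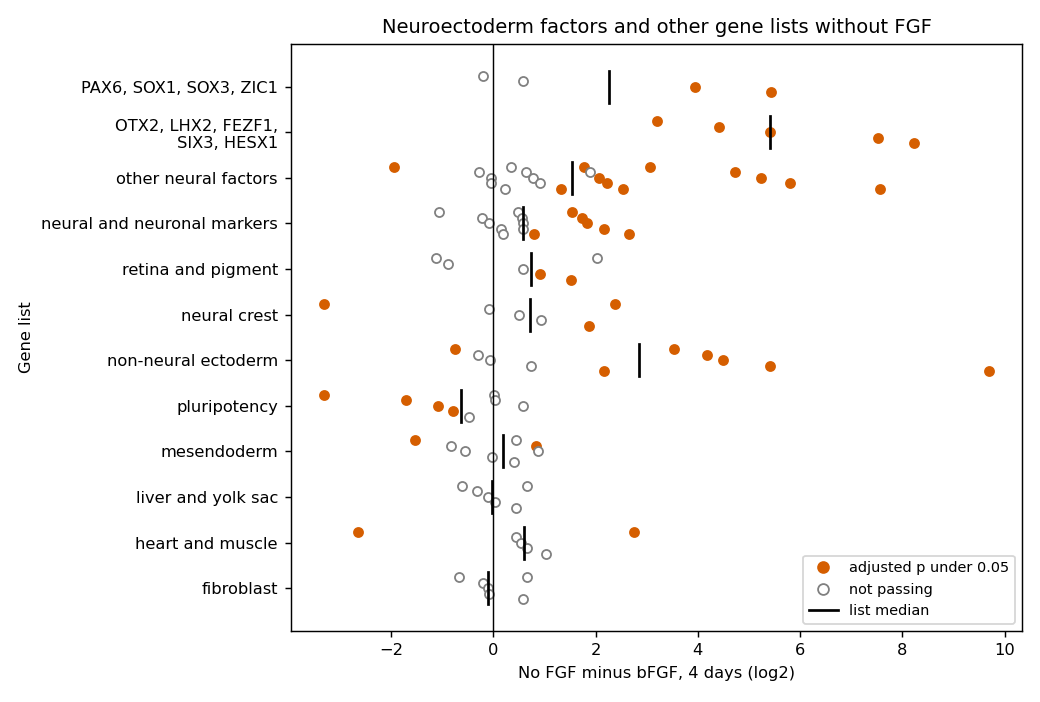
Log2 difference between no FGF and bFGF at 4 days (x axis) for each gene of 12 lists (y axis), filled where the adjusted p was under 0.05, with a bar at the median of the list. The OTX2, LHX2, FEZF1, SIX3 and HESX1 row has its median at 5.42 and no open point, and the pluripotency list is the one with the lowest median, at -0.63.

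Other genes of the same tissue and of other cell types were read from lists. Of 20 other transcription factors of the neural plate, 10 rose, 1 fell and 9 did not pass without FGF against bFGF (median log2 difference 1.54). RAX rose by 7.56 on the log2 scale. FEZF2, a forebrain repressor akin to FEZF1, was at least 18.8-fold and LHX5, a LIM-homeodomain factor of the forebrain, at least 21.4-fold higher, each well above background on 0 of 6 arrays with bFGF, whereas GBX2, a factor of the anterior hindbrain, fell by 1.94 on the log2 scale. Without experiment 1, 2 or 3, or with the experiment or the slide as a block, 5 to 12 of the 20 rose. Of 15 neural and neuronal markers 6 rose, MAP2, a microtubule protein of neurons, by 2.65, CDH2 (N-cadherin) by 2.17, STMN2 by 1.83 and TUBB3 by 1.73, and 3 to 6 rose in those settings. Of 10 genes of the non-neural ectoderm and its border, 6 rose and 1 fell (5 or 6 rose in those settings). DLX5 was at least 387-fold, GATA3 at least 20.1-fold, DLX3 at least 9.74-fold and MSX2 at least 7.53-fold higher without FGF, and KRT18 fell by 0.74. The summed linear signal of this list was 52.7 to 62.7 without FGF and 74.5 to 84.7 with bFGF, with 1 to 2 of its 10 genes not above background in the cultures without FGF and 5 to 7 in those with bFGF. KRT18 alone made 70.4% to 79.2% of this sum without FGF and 90.7% to 91.8% with bFGF. The sum thus mostly follows the signal of 1 probe that fell, not the 6 genes that rose. It is a sum of probe signals and no measure of transcript numbers.

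Of 8 pluripotency genes 4 fell and 4 did not pass (1 to 4 fell in those settings). CRIPTO (TDGF1) fell by 3.32, NANOG by 1.71, POU5F1 by 1.08 and L1TD1 by 0.79, and the summed signal of the list was 285 to 392 without FGF and 502 to 612 with bFGF. This sum weighs bright probes such as that of POU5F1 most, and it does not show a fall of the 4 genes that did not pass. Among 6 neural crest genes FOXD3 fell by 3.31, while SOX9 rose by 1.87 and PAX3 was the other gene that rose. Of 6 heart and muscle genes ACTA2 rose by 2.74 and TNNT2 fell by 2.65, and of 8 genes of mesoderm and endoderm 1 passed in each direction. The higher of these was TBXT, which was well above background on 0 of 12 arrays in both arms, so that its difference of 0.83 lies between background readings, and the lower was GSC, and both are named outside the rule after their values were seen. Of 6 retina and pigment genes 2 rose, among them PMEL by 0.92. For the lists of 6 liver and yolk sac and 6 fibroblast genes 0 passed in limma, with 0 and 1 at an unadjusted p under 0.05. Whether the neuroectoderm and the border genes rose in the same or in different cells was not tested.

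FGFC was compared with bFGF at 4 days to ask whether the exchange of the growth factor moves these genes. In limma 0 of the 9 passed, as did 0% of all probes, and 1 of 9 had an unadjusted p under 0.05, against 2.98% of all probes. That gene was FEZF1, at -5.93, -2.95 and -4.50 with FGFC and at -5.99, -5.84 and -6.54 with bFGF. FEZF1 was well above background on 0, 2 and 1 of 2 arrays with FGFC in experiments 1, 2 and 3 and on 0 of 6 with bFGF, which gave at least 2.28-fold (log2 difference 1.66 ± 0.56 SE, unadjusted p = 0.0131, adjusted p = 1.00, limma). Of all probes, 59.9% and 57.2% were well above background on the FGFC arrays of experiment 1 and 76.4% and 77.1% in experiment 2. In experiment 3 these shares were 57.1% and 71.3%, and on the bFGF arrays they were 66.1% to 72.8%. OTX2 was at -0.91, -0.23 and -0.91 with FGFC against -1.45, -0.92 and -1.69 with bFGF, and its arms did not overlap. The OTX2 difference of 0.67 ± 0.30 (SE) had an unadjusted p of 0.0503 in limma, and the other 7 genes differed by -0.49 (SIX3) to 1.23 (SOX1). The value of SOX1 rested on a single array, since the duplicates of the FGFC culture of experiment 1 read -1.52 and -6.12 and all other 4-day arrays were not well above background. HESX1 was at -1.01, -1.89 and -1.82 with FGFC, LHX2 at -4.14, -3.58 and -3.32, SIX3 at -4.16, -4.01 and -4.95, and SOX3 at 3.52, 3.22 and 3.23, and each of these overlapped its bFGF cultures.

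**Figure D3:**
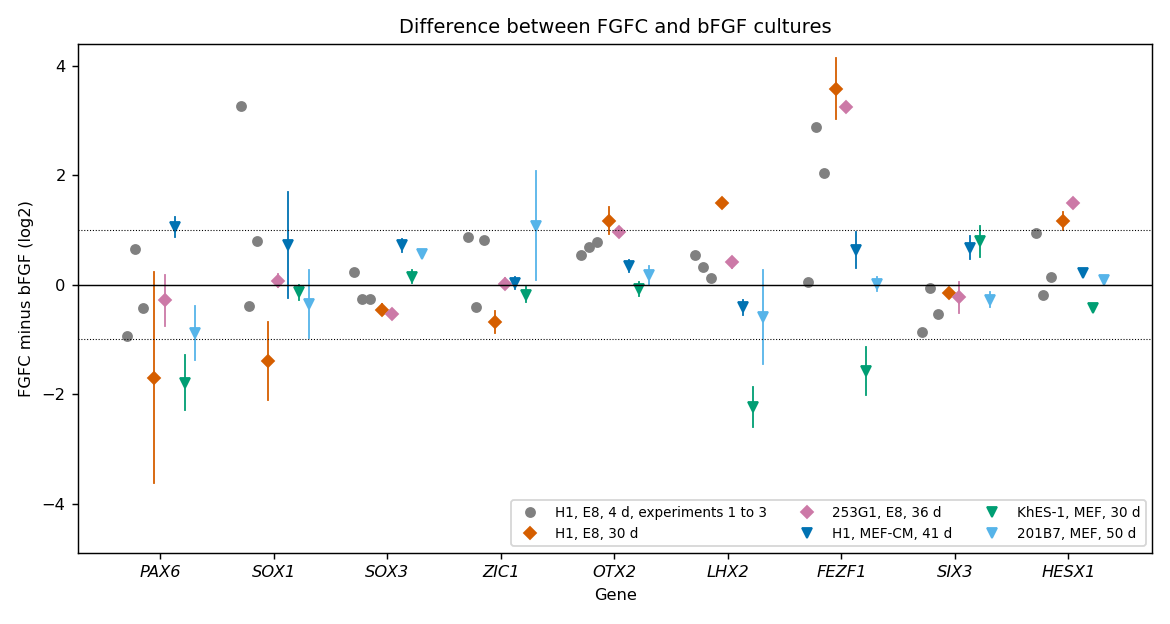
FGFC minus bFGF on the log2 scale (y axis) for each gene (x axis), with grey points for the 3 experiments of 4 days and coloured markers for the 5 long-term systems, whose lines span the 4 differences between single arrays. The dotted lines are 2-fold, and FEZF1 lay above the upper line in both systems in E8 Medium and below the lower line in KhES-1.

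In long-term culture, 0 of 9 genes passed between FGFC and bFGF over the 5 systems (limma with the system as a block, adjusted p 0.704 to 0.950), as did 0% of all probes. With an unadjusted p under 0.05 there was 1 of 9, OTX2 (log2 difference 0.52 ± 0.20 SE, unadjusted p = 0.0422, higher in 4 of 5 systems), against 5.91% of all probes. Within a system, with 1 culture per arm and no test, more genes were past 2-fold in H1 in E8 Medium than in any other system. There FEZF1, OTX2, LHX2 and HESX1 were 2-fold or more higher with FGFC and PAX6 and SOX1 lower, while 1.67% of all probes were higher and 5.18% lower. FEZF1 was at -2.49 with FGFC and -6.08 with bFGF, at least 6.68-fold higher, LHX2 at -1.95 and -3.44, HESX1 at 0.62 and -0.55, and OTX2 at 0.24 and -0.93. The differences between single arrays kept one sign for these genes, from 0.92 at the lowest for OTX2 to 4.14 at the highest for FEZF1. SOX1 was not well above background in either culture, and PAX6 was so on 1 array alone, with bFGF arrays at -6.36 and -3.59.

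The 253G1 line in the same medium had FEZF1 at -3.22 with FGFC and -6.47 with bFGF, at least 4.26-fold higher, and HESX1 at 0.88 and -0.61. These 2 were its only genes of the 9 past 2-fold, with 2.36% of all probes higher and 5.00% lower, and OTX2 (0.09 and -0.87) lay just inside at 0.96. In KhES-1 FEZF1 and LHX2 had the opposite sign to H1 and 253G1 in E8 Medium, and PAX6 the same. FEZF1 was at -5.48 with FGFC and -3.90 with bFGF, LHX2 at -5.64 and -3.40, and PAX6 at -6.86 and -5.07, so that these 3 were 2-fold or more lower with FGFC and 0 higher, while 1.87% of all probes were higher and 1.30% lower. In H1 in MEF-conditioned medium PAX6 was the gene past 2-fold, at -4.45 with FGFC and -5.51 with bFGF (1.42% of all probes higher, 2.98% lower). In 201B7 it was ZIC1, at -6.17 and -7.25, well above background on 1 of the 4 arrays (1.15% higher, 5.02% lower). A grouping of the 5 pairs of H1 or 253G1 cultures in E8 Medium (3 experiments and 2 long-term systems) was chosen after these values were seen. FEZF1, OTX2 and LHX2 were higher with FGFC in all 5 pairs, and SIX3 was lower in all 5. The differences were 0.05 to 3.58 for FEZF1, 0.54 to 1.17 for OTX2 and 0.12 to 1.49 for LHX2. FEZF1 in experiment 1 and SIX3 in 253G1 were well above background on no array of either culture. Those differences lie between background readings. The share of all probes with one sign in all 5 pairs was not counted. In the 3 systems with MEFs, FEZF1 differed by 0.63, -1.58 and 0.01, OTX2 by 0.34, -0.08 and 0.18, and LHX2 by -0.42, -2.24 and -0.59 in H1, KhES-1 and 201B7. Medium, FGF dose and cell line differ between these systems and cannot be told apart, and the difference between the groups of systems was not tested. In long-term H1 in either medium and in KhES-1, the FGFC and bFGF cultures were on different slides. The same held for experiment 2 of 4 days, and slide and growth factor cannot be told apart in these pairs. In 201B7 and 253G1 the FGFC and bFGF cultures shared a slide.

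**Figure D4:**
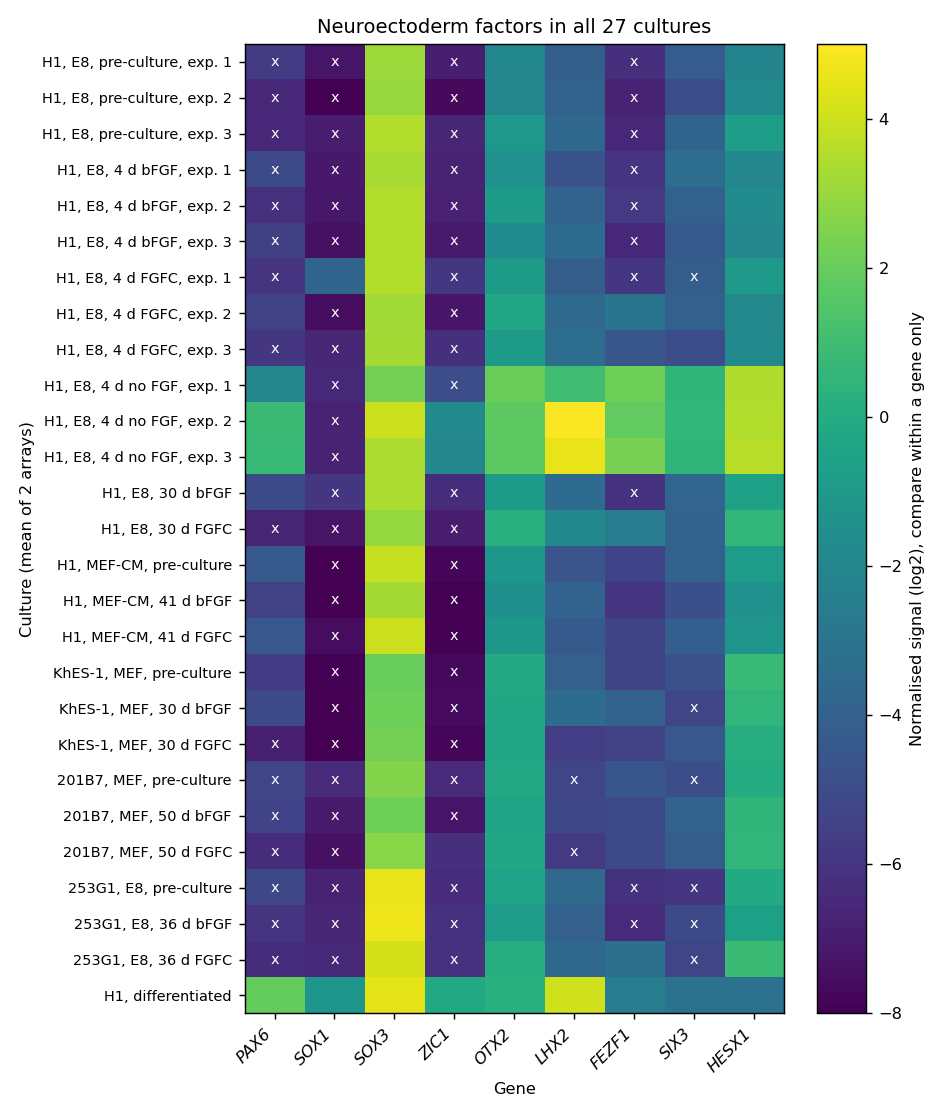
Normalised log2 signal (colour) of the 9 genes (columns) in all 27 cultures (rows, the mean of 2 arrays each), with a cross where the probe was well above background on neither array. Within the columns of OTX2, FEZF1, SIX3 and HESX1 the cultures without FGF are the brightest, and within those of PAX6, SOX1 and ZIC1 the differentiated culture is.

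With FGF present, the genes had different resting levels by system. HESX1 lay between -2.11 and 0.62 (median -1.81) in 11 H1 cultures in E8 Medium and between -1.42 and -0.88 in 3 in MEF-conditioned medium, and was higher in KhES-1 (0.10 to 0.80), 201B7 (0.01 to 0.56) and 253G1 (-0.61 to 0.88), with ranges that overlapped each other and that of H1 in E8 Medium. By median HESX1 was higher in all 3 other lines than in H1 in either medium, and so was OTX2, with -2.04 to 0.24 (median -0.93) in H1 in E8 Medium, -1.48 to -1.14 in MEF-conditioned medium, -0.36 to -0.05 in KhES-1, -0.40 to -0.14 in 201B7 and -0.87 to 0.09 in 253G1. For both genes the highest H1 culture with FGF was the 30-day FGFC culture, and every culture with FGF lay below the 3 without. SOX3 had another order, with 4.16 to 4.69 in 253G1, 3.24 to 3.97 in H1 in MEF-conditioned medium, 2.94 to 3.52 in H1 in E8 Medium, 2.13 to 2.69 in 201B7 and 1.97 to 2.28 in KhES-1. The SOX3 range of 253G1 stood apart from the others, as did those of H1 from those of 201B7 and KhES-1, while the ranges of the 2 H1 media overlapped, and so did those of 201B7 and KhES-1. LHX2 lay between -4.69 and -1.95 in H1 in E8 Medium and was lowest in 201B7 (-5.77 to -5.18, overlapping KhES-1 at -5.64 to -3.40), where 1 of 6 arrays was well above background. SIX3 lay between -4.95 and -3.30 in H1 in E8 Medium and between -5.97 and -5.06 in 253G1, where it was well above background on 0 of 6 arrays, and these ranges did not overlap.

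H1 in MEF-conditioned medium was set against the 11 H1 cultures in E8 Medium with FGF. The 3 cultures are of 1 system and no test was made. Only ZIC1 lay outside the range, with a mean difference of -1.20, and it was not well above background on any of these arrays. Of all probes 7.19% lay above and 17.8% below the range. PAX6 was at -4.35, -5.51 and -4.45 in the pre-culture, the bFGF and the FGFC culture in MEF-conditioned medium, well above background on 6 of 6 arrays, against -6.67 to -4.98 and 2 of 22 arrays in E8 Medium. The PAX6 ranges overlapped, and the arrays in MEF-conditioned medium had 75.2% to 79.2% of all probes well above background, against 57.1% to 77.1% in those of H1 in E8 Medium with FGF.

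**Figure D5:**
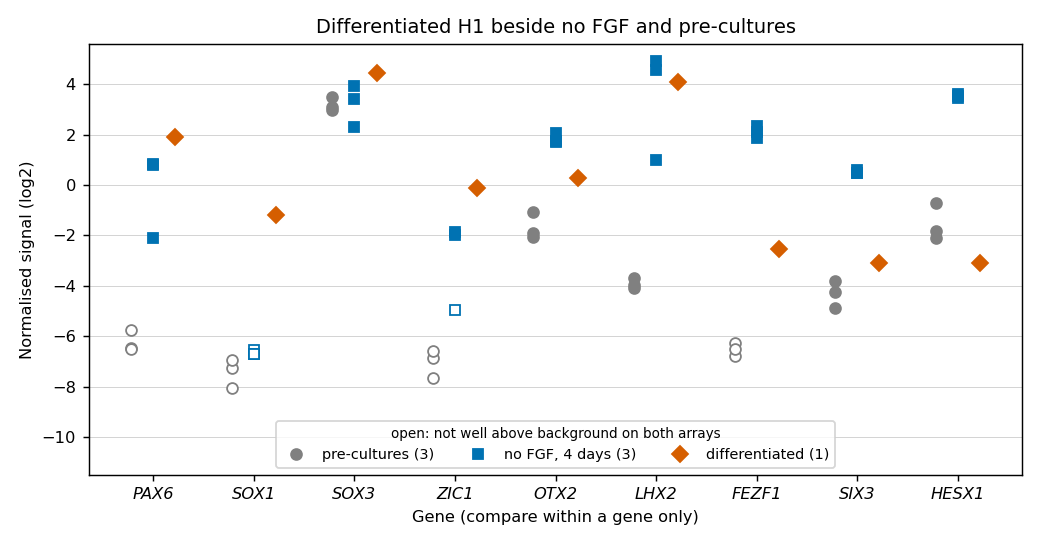
Normalised log2 signal of each gene in the 3 H1 pre-cultures (grey), the 3 cultures without FGF for 4 days (blue) and the differentiated culture (orange), open where the probe was not well above background on both arrays. PAX6, SOX1, SOX3 and ZIC1 were highest in the differentiated culture, and OTX2, FEZF1, SIX3 and HESX1 in the cultures without FGF.

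The differentiated culture was compared with the 3 H1 pre-cultures in E8 Medium, as a single culture with no test. By the study's methods embryoid bodies were grown in another medium than E8 Medium, and the labels of this culture give no day. Medium, culture format, time and the absence of FGF cannot be told apart here, and medium, format and time may also differ from the cultures without FGF. All 9 genes were past 2-fold, 8 higher and HESX1 lower, while 14.3% of all probes were higher and 15.5% lower. PAX6 was at 1.91 (arrays 2.08 and 1.74), against -6.50 to -5.76 in the pre-cultures, and was at least 233-fold higher. SOX1 was at -1.17, well above background on both arrays, and at least 30.5-fold higher than in the pre-cultures. ZIC1 was at -0.11 and at least 63.6-fold higher, and SOX3 at 4.44 against 2.98 to 3.50. All 4 of these genes of the plate at large were above the range of the cultures without FGF. LHX2 was at 4.08, a difference of 7.99, and within the range of the cultures without FGF (0.99 to 4.94). FEZF1 was at -2.53, at least 11.8-fold above the pre-cultures, and differed by -4.63 from the mean without FGF. OTX2 was at 0.26 (pre-cultures -2.04 to -1.05), SIX3 at -3.10 (pre-cultures -4.87 to -3.82) and HESX1 at -3.09 (pre-cultures -2.11 to -0.70), and each of these was below all 3 cultures without FGF. The difference of HESX1 from the mean without FGF was -6.64. The share of all probes of this culture above or below the range of the 3 cultures without FGF was not counted. The places of these genes outside that range therefore have no background beside them.

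Genes of many tissues moved in the same culture. Of the 20 other neural plate factors 11 were 2-fold or more higher and 2 lower, with NR2F1 at least 1788-fold, EMX2 at least 990.0-fold and FEZF2 at least 304-fold higher, and of 15 neural and neuronal markers 14 were higher and 0 lower, among them HES5 (log2 difference 10.15) and STMN2 (7.84). All 6 fibroblast and all 6 liver and yolk sac genes were higher, among them TTR (at least 2427-fold) and DCN (log2 difference 11.36, well above background on 1 of 6 pre-culture arrays), as were 9 of 10 non-neural ectoderm genes, 7 of 8 of mesoderm and endoderm, 4 of 6 of heart and muscle, 5 of 6 of retina and pigment and 5 of 6 of neural crest. All 8 pluripotency genes were 2-fold or more lower, with log2 differences of -7.48 for CRIPTO and -5.31 for POU5F1, and their summed signal was 24.0 against 545 to 651 in the pre-cultures. The share of neural cells in this culture was not tested.

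Across the cultures, some pairs of these genes ran together and others did not. Over the 23 cultures with FGF, Pearson's r was 0.82 (Spearman's rho 0.80) between OTX2 and HESX1 and 0.74 (rho 0.76) between OTX2 and FEZF1. For OTX2 and FEZF1, r was 0.87 in the 11 H1 cultures in E8 Medium, 0.59 in the 12 cultures of the other systems, and 0.67 over the 23 without the 2 farthest in OTX2. For OTX2 and HESX1, r was 0.66, 0.96 and 0.80 in the same order, and 0.32 in H1 in E8 Medium without the 2 farthest, so that within H1 in E8 Medium it rests on those. FEZF1 was well above background on 5 of 22 arrays of H1 in E8 Medium with FGF, and on 22 of all 46 arrays with FGF. On the other arrays its values are background readings. Over the same 23 cultures r was -0.26 (rho -0.33) between SOX3 and OTX2 and 0.01 (rho 0.04) between OTX2 and LHX2. These values are descriptions, and cultures of a system share cell line, medium and in part the slide.

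The genes most like each member were sought over the 26 cultures other than the differentiated one, among 19465 named probes well above background on at least 50% of arrays, a condition that PAX6, SOX1 and ZIC1 did not meet. The 3 cultures without FGF stand apart in these values, so r over the 23 cultures with FGF is given too. For LHX2 they were RAX (r = 0.95), FHOD3 and PTN, and without those 3 cultures r was 0.37 for RAX, 0.66 for FHOD3 and 0.54 for PTN. For FEZF1 they were FRZB, ME3 and OTX2 (r = 0.94, 0.93 and 0.92, and 0.61, 0.51 and 0.74 with FGF). FEZF1 met that condition through the cultures without FGF, since with FGF it was well above background on 22 of 46 arrays (47.8%). For SIX3 they were HAPLN1, HDC and VWF (0.97, 0.94 and 0.93, and 0.68, 0.38 and 0.38 with FGF). For OTX2 they were HESX1, DPYSL3 and FRZB (0.94, 0.93 and 0.93, and 0.82, 0.86 and 0.81 with FGF), and for HESX1 they were LRRC49, DPYSL3 and CCDC85C (0.95, 0.94 and 0.94, and 0.87, 0.90 and 0.86 with FGF). For SOX3 they were CADM4, SOCS3 and LIPA (0.81, 0.80 and 0.78, and 0.86, 0.84 and 0.83 with FGF).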

How the data were processed

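RNA of 27 cultures was measured on 54 one-colour Agilent arrays on 17 slides. The signal intensity per spot is as the authors deposited it, that is, the processed signal that Agilent Feature Extraction 10.7.3.1 gives after subtracting background, linear and without scaling of one array to another. The deposited median intensities of spot and background were used for normexp alone. Of 62976 spots, 4259 control spots and 266 to 623 outlier spots per array were not used. Signals below 1 were raised to 1, log2 values of the spots of each probe were averaged, and the 75th percentile over probes was subtracted. A probe was well above background on an array when the software had marked a share of 0.5 or more of its spots so. Through their RefSeq accessions 25715 of 42405 probes received a symbol of the GRCh38.p14 annotation, which was not used for coordinates of probes. Probe sequences were not used here. The number of cultures per arm limits the precision, since the arrays of a culture are technical duplicates.

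Duplicate arrays were averaged. The 4 arms of 4 days (12 cultures) shared one fit, and the 10 long-term cultures had the system as a block, with limma 3.58.1 in R 4.3.3 (lmFit, eBayes, Benjamini-Hochberg over all probes, threshold 0.05). The fits were tested on simulated data. The study's methods name a 2-fold rule and no test for the arrays. "At least" folds, used where a group was not well above background on any array, are against the mean, over the arrays of that group, of the higher of the probe's own signal and the lowest signal of any probe well above background there.

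All 9 genes are named in each comparison. From other lists up to 4 genes were named by the largest change among those past the test (or 2-fold). They also had to be so marked on all arrays of the group where they were higher. TFAP2A and PAX3 were added after their values had been seen. GBX2 and KRT18, each the only gene of its list that fell without FGF against bFGF, are also named outside the rule. A gene that the rule also named is not reported here. The genes and lists were chosen with earlier results of these data known. The experiment numbers come from the labels. Deviations from the arm means correlated at 0.19 to 0.32 between no FGF and bFGF cultures of one experiment and at 0.23 to 0.26 between no FGF and FGFC cultures, but at 0.077 to 0.18 between bFGF and FGFC cultures. The experiment was a block in an alternative. Other alternatives were quantile normalization, normexp (offset 50), a floor set where signals are no longer well above background, a filter on dim probes, either array of each pair alone, the slide as a random block, the mean over the probes of a gene, fewer arms, no system block, another reference for the differentiated culture and leaving out each experiment, system or culture. Python 3.11.15, numpy 2.4.6, pandas 2.3.3, scipy 1.17.1 and matplotlib 3.10.9 were used.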

Additional observations from a re-analysis of the deposited data

How the results depend on the processing

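The 7 rises without FGF against bFGF and against FGFC kept their direction under every alternative, and 6 to 8 of 9 genes passed, 8 with the no FGF and bFGF arms alone, where SOX1 passed, and 6 with the filter on dim probes, which left ZIC1 and SOX1 untested. That filter kept a probe marked well above background on all arrays of any arm. PAX6 and FEZF1 met it only through the arm without FGF, where they are high, so their calls under it are no separate support. With the experiment as a replicate block, 7, 7 and 0 genes passed in the 3 comparisons of 4 days, and no call changed. ZIC1 lost its call in the settings named in the report. Leaving out each experiment in turn gave SOX3 -0.54 to 0.19 without FGF against bFGF and -0.52 to 0.46 against FGFC, and SOX1 -1.41 to 0.39 against FGFC, which was 0.15 on the second arrays. Between FGFC and bFGF at 4 days, PAX6 turned to 0.12 with the floor, 0.18 on the second arrays, 0.0941 as the mean of its probes, and leaving out each experiment gave PAX6 -0.68 to 0.11 and HESX1 -0.018 to 0.55. In long-term culture ZIC1 turned to -0.060 with the floor, -0.12 on the second arrays and -0.050 with the slide block. Leaving out each system gave ZIC1 -0.20 (without 201B7) to 0.23, SOX1 -0.45 to 0.079 (without H1 in E8 Medium), SOX3 -0.068 (without H1 in MEF-conditioned medium; -0.03 without 201B7) to 0.24 and LHX2 -0.71 to 0.22 (without KhES-1). The cause of these turns was not tested, and none of the turned values passed.

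Normexp moved the count of genes past 2-fold between FGFC and bFGF from 6 to 3 in H1 in E8 Medium, from 3 to 0 in KhES-1, from 1 to 0 in H1 in MEF-conditioned medium and from 1 to 0 in 201B7. For H1 in MEF-conditioned medium the count was 0 on the first arrays, 2 on the second and 0 as the mean of the probes, and for 201B7 it was 0 with the floor. The 1 gene outside the range of H1 in E8 Medium became 0 with normexp, 0 with quantile normalization and 2 with the floor, and 1 to 3 when a culture or an experiment was left out. SOX1, ZIC1, PAX6 and FEZF1 were near background in most cultures with FGF, where only bounds can be given.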
